A study of Mus musculus with 15 samples.

Results

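The livers of all mice exposed to the carcinogen DEN were set against the livers of mice that received saline, whichever plasmid the DEN-exposed mice carried. The DEN-exposed side held 11 of the 15 arrays and 10 of the 13 livers: the arrays titled DEN (group T, 5 arrays of 4 livers) and Gas1 (group G, 6 arrays of 6 livers). The saline side was group C, with 4 arrays of 3 livers. Arrays C3 and C4 carried the same RNA code, as did T4 and T5, and each pair was averaged into 1 liver.

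DEN (diethylnitrosamine) is an alkylating agent that liver cells activate through cytochrome P450 enzymes, and in infant male mice it starts hepatocellular tumours. The mice were CD1 males injected intraperitoneally at 15 days of age, with saline in group C and with 25 µg of DEN per g of body weight in groups T and G. All 3 groups then received a plasmid into the tail vein by hydrodynamic gene delivery, a rapid large-volume injection that brings DNA into hepatocytes, every week from week 28 to week 34. Groups C and T received the empty vector, and group G received a vector driving HA-tagged Gas1, a growth arrest gene, from the CAG promoter. The livers were taken in week 35, although the sample labels give an age of 10 weeks. RNA was taken from liver that could hold tumours of several stages as well as tissue outside them, so a change in the share of a cell type and a change of RNA per cell cannot be told apart.

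Expression was read on single-colour Agilent mouse arrays. All values below are log2 intensities after background correction and quantile normalisation, and a difference is the DEN-exposed mean minus the saline mean. Between 15707 and 27681 spots were well above background on the saline arrays and between 18041 and 29765 on the DEN-exposed arrays. All 6 hepatocyte markers, Alb among them, were above background on all 15 arrays, and their mean level was 15.16 to 15.29 in saline livers and 14.97 to 15.28 in DEN-exposed livers. Liver G6 stood apart through transcripts of skeletal muscle: Acta1 read 13.46 (6.13 to 7.48 in the other livers with a value), Myh4 12.51, Tnnt3 12.21 and Ckm 10.85 there, while Myh4, Tnnt3 and Ckm lay between 5.79 and 6.38 in the other livers. Liver T2 stood apart through acute phase transcripts, with Saa1 at 18.40 and Lcn2 at 15.40. Gas1 itself read 6.31 to 6.67 in saline livers, 6.41 to 6.61 in group T and 6.49 to 6.79 in group G. These levels were near the lowest signals well above background, 6.07 to 6.58 over the arrays. The array did not show group G above group T (difference 0.08, 95% interval -0.09 to 0.25, adjusted p = 0.765). The Gas1 level thus does not bear out the plasmid label, and whether its probes lie in the part carried by the plasmid was not checked. The last delivery was in week 34. After a delivery, the paper found plasmid and mRNA falling with time while the tagged protein stayed high.

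Of 22032 genes tested, 130 (0.59%) passed an adjusted p of 0.05 in limma's test of 10 against 3 livers. The genes that rose numbered 46 (0.209%) and included the circadian transcription factors Dbp, Tef, Nr1d1 and Nr1d2 and the secreted peptide Tff3. The genes that fell numbered 84 (0.381%) and included the acetyl-CoA suppliers Acly and Acss2, the mevalonate pathway kinase gene Pmvk, the nuclear receptor gene Ppard and the water channel gene Aqp8. Most differences were small: the median size over the 130 was 0.52, and 5 rises and 11 falls exceeded 2-fold. The livers of both sides did not overlap at 760 genes (3.45%), and 123 of the 130 were among them.

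The number of genes that passed moved with single livers and with the scaling. Without saline liver C1 it was 18, without C2 17 and without C3 278. Without G4 it was 232, without G6 287, without T3 58 and without T4 79. Acss2, Pgrmc2 and Itpr3 (0.57 ± 0.07, adjusted p = 0.0137), a calcium channel gene of the endoplasmic reticulum, passed in each of the 13 fits that left out 1 liver. With slide as a term 271 genes passed, whereas within slide 1 (2 saline and 5 DEN-exposed arrays) 2 genes did and within slide 2 (2 and 6 arrays) 0 did by limma, where 3317 genes had an unadjusted p under 0.05. With each array scaled to its median in place of quantile normalisation, 4123 genes were called higher and 31 lower, and the median difference of the 8468 genes above background on all arrays was then 0.60. Of the 130 genes, 81 kept their sign under that scaling, and all 130 kept it with cyclic loess (8 genes called) or the scanner's processed signal (2 called). Of the 30 genes named for the size of their change, 29 kept their direction under every alternative tried, and Paqr9 (-0.79) turned to 0.04 under median scaling. That scaling kept the calls of all 15 named rises, but of the 15 named falls only Ly6a and Pnpla5 stayed called. With cyclic loess only the rise of Dbp and the falls of Acss2 and Pgrmc2 stayed called, and with the processed signal only the rise of Dbp. The calls of all named rises and falls but Dbp thus depended on the scaling. Calls also depended on single livers, and 28 of the 30 no longer passed without C1.

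**Figure D1:**
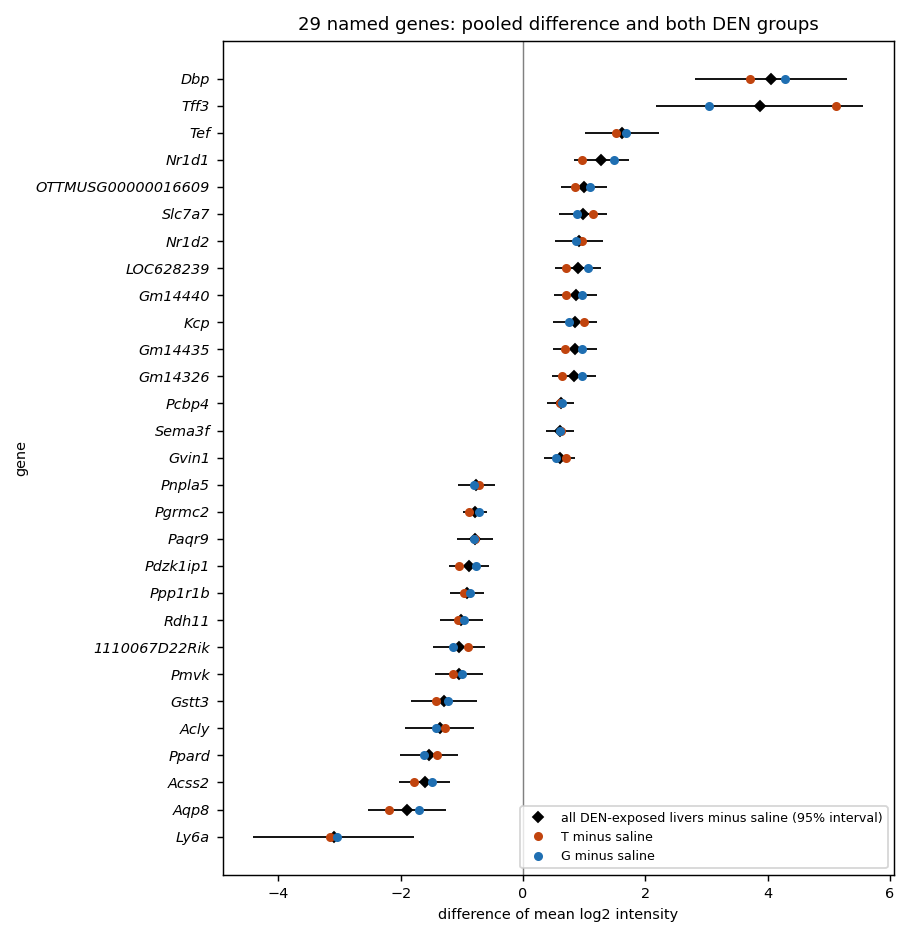
Difference of mean log2 intensity from saline (horizontal axis) for the 15 largest rises and 14 of the 15 largest falls, 1 gene per row. Black diamonds are all DEN-exposed livers with the 95% interval of the limma fit, and coloured points are groups T and G alone against the same saline livers. The genes were chosen with all DEN-exposed livers on 1 side of the saline livers. The points of both groups therefore lie on the same side of 0 in all 29 rows by selection. They lie farthest apart at Tff3.

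The circadian clock of the liver is a loop in which the activators Arntl and Clock drive their own repressors, the Per and Cry genes, and the nuclear receptors Nr1d1 and Nr1d2 (Rev-erb alpha and beta) repress Arntl. Dbp, Tef and Hlf are transcription factors of the PAR bZIP family that the loop drives through E-boxes and that act in turn at D-boxes, while Nfil3 represses at the same D-boxes. These genes govern daily rhythms of detoxification and lipid metabolism in hepatocytes. The hour at which the mice were killed was not given in the sources used here.

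The 250 bases before the transcription start are shown for the 4 clock genes that rose and for Per3. They were picked after their values were seen, as genes of the clock loop (Nr1d1, Nr1d2 and Per3) or driven by it (Dbp and Tef). Sequences are from RefSeq on GRCm38.p6, written 5′ to 3′ along the gene. Capitals mark matches to the E-box CACGTG, the D-box TTANGTAA or the half-site AGGTCA that Rev-erb and other nuclear receptors bind, each searched on both strands.
Dbp (chr7:45704997-45705246, plus strand): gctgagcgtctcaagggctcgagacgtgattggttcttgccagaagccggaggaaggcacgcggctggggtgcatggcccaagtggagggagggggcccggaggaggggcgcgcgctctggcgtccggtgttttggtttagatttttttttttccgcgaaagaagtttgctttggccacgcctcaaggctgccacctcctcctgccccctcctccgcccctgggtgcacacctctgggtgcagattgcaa
Tef (chr15:81802423-81802672, plus strand): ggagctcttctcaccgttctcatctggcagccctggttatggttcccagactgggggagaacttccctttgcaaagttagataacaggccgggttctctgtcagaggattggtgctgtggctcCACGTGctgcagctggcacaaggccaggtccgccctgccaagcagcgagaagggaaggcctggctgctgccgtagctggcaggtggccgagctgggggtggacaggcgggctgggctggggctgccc
Nr1d1 (chr11:98775378-98775627, minus strand): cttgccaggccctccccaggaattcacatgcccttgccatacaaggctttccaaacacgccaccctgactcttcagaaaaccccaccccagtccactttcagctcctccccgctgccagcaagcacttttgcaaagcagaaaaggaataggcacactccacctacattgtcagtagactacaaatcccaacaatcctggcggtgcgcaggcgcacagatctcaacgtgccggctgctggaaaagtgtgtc
Nr1d2 (chr14:18239107-18239356, minus strand): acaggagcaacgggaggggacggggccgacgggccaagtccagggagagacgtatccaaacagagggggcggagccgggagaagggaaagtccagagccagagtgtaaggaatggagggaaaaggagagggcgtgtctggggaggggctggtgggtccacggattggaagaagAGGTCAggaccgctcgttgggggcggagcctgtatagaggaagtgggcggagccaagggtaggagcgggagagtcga
Per3 (chr4:151044666-151044915, minus strand): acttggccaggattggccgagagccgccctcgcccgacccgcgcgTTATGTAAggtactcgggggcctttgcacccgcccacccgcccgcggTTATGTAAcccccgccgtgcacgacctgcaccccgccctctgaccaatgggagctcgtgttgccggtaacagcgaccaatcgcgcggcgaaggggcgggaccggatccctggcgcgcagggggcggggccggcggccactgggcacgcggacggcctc

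The window of Tef, the first of its 2 annotated starts, held an E-box 127 bases before the start, and that of Nr1d2 held a half-site 77 bases before it. Per3 held D-boxes 205 and 158 bases before its start, and the windows of Dbp and Nr1d1 held none of the 3 motifs. Among 32851 windows of all genes, 6.02% held the E-box, 2.06% the D-box and 14% the half-site. A window was found for 18 of the 30 named genes, and 5 of these held the E-box, 0 the D-box and 4 the half-site. Of the E-box genes Tef rose, and Aqp8, Pdzk1ip1, Pgrmc2 and Pnpla5 fell. Of the half-site genes Nr1d2, Gm14440 and Gm14326 rose and Acly fell, and the windows of Gm14440 and Gm14326 were nearly alike. Whether these shares exceed those of all windows was not tested. The matches are letters in a window, and binding was not measured.

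Dbp, the D-box binding protein, had the largest rise. Its level was 7.04, 8.27 and 7.08 in the saline livers C1, C2 and C3 and ran from 9.37 through a median of 11.82 to 12.80 in the DEN-exposed livers. No DEN-exposed liver came within 1 log2 unit of the saline livers, and the lowest was T1. The difference was 4.06 ± 0.58 (SE), a 16.6-fold rise (adjusted p = 0.0137, limma), with 3.71 in group T and 4.29 in group G. Without C1 the adjusted p was 0.071 at an unchanged direction.

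Tef, of the same family, read 10.12, 10.51 and 10.41 in the saline livers and 11.05, 11.99 and 12.70 at the lowest, median and highest of the DEN-exposed livers. It rose by 1.62 ± 0.28 (adjusted p = 0.0253), and the adjusted p was 0.129 without C1 and 0.0799 without C2. Hlf, the third member, also did not overlap between the sides, but its difference of 0.70 ± 0.20 did not pass (adjusted p = 0.112). All 3 PAR bZIP factors were thus higher in all 10 DEN-exposed livers than in any saline liver. Over all genes 3.45% did not overlap, in either direction.

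Nr1d1 read 6.29, 7.14 and 7.16 in the saline livers, and 7.51, 8.24 and 8.47 at the lowest, median and highest of the DEN-exposed livers. It rose by 1.28 ± 0.21 (adjusted p = 0.0223), by 0.97 in group T and 1.49 in group G. All 6 livers of group G lay at 8.23 or above, and the highest liver of group T was at 8.04, but the difference between these groups of 0.52 (95% interval 0.18 to 0.85) did not pass across all genes (adjusted p = 0.229). Nr1d2 read 6.22, 6.99 and 6.68 in the saline livers and ran from 7.06 through 7.57 to 7.90 in the DEN-exposed livers. Its gap between the sides was narrow, and it rose by 0.91 ± 0.18 (adjusted p = 0.0447), a call that was lost when any of 10 livers was left out, with a highest adjusted p of 0.221 without C1. The call of Nr1d1 was lost without C1 (adjusted p = 0.106) and without C2 (adjusted p = 0.069).

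Among 15 core clock genes, 2 rose, 0 fell and 13 did not pass, where 0.59% of all genes passed. The list median was 0.16 against 0.00 for all genes. Under median scaling that list median was 0.35, which is -0.24 relative to the genes above background on all arrays. Per3, a Per family repressor, was above background on all 11 DEN-exposed arrays, 1 of which (G6) had a flagged spot and no value, and on 0 of 4 saline arrays, which gives at least 1.70-fold higher, and it did not pass (adjusted p = 0.0702). Arntl read 8.10, 7.65 and 8.01 in the saline livers and 6.33, 6.74 and 7.72 at the lowest, median and highest of the DEN-exposed livers. Only liver T1 overlapped with the saline range, and the difference of -1.12 ± 0.24 missed the threshold (adjusted p = 0.052). Without G6, 2 core clock genes rose and 1 fell, and without C1 no member passed. The activators Clock and Rora were at -0.04 and 0.01.

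Among 12 clock output genes, Dbp and Tef rose, Lonrf3 fell and 9 did not pass, where 0.59% of all genes passed. The list median was 0.50. Under median scaling it was 1.25, which is 0.65 relative to the genes above background on all arrays. Lonrf3, a ring finger protein gene, fell by 0.61 ± 0.11 (adjusted p = 0.0328), with liver T1 at 6.86 just above the lowest saline value of 6.85. Usp2, a ubiquitin protease gene, lay between 6.30 and 6.43 in saline livers and between 6.69 and 9.44 in DEN-exposed livers, yet its wide spread left it uncalled at 1.82 ± 0.51 (adjusted p = 0.108). Nfil3 was -0.91 ± 0.25 (adjusted p = 0.103). With C1 left out no member passed, and with C2 left out 1 rose and 1 fell.

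**Figure D2:**
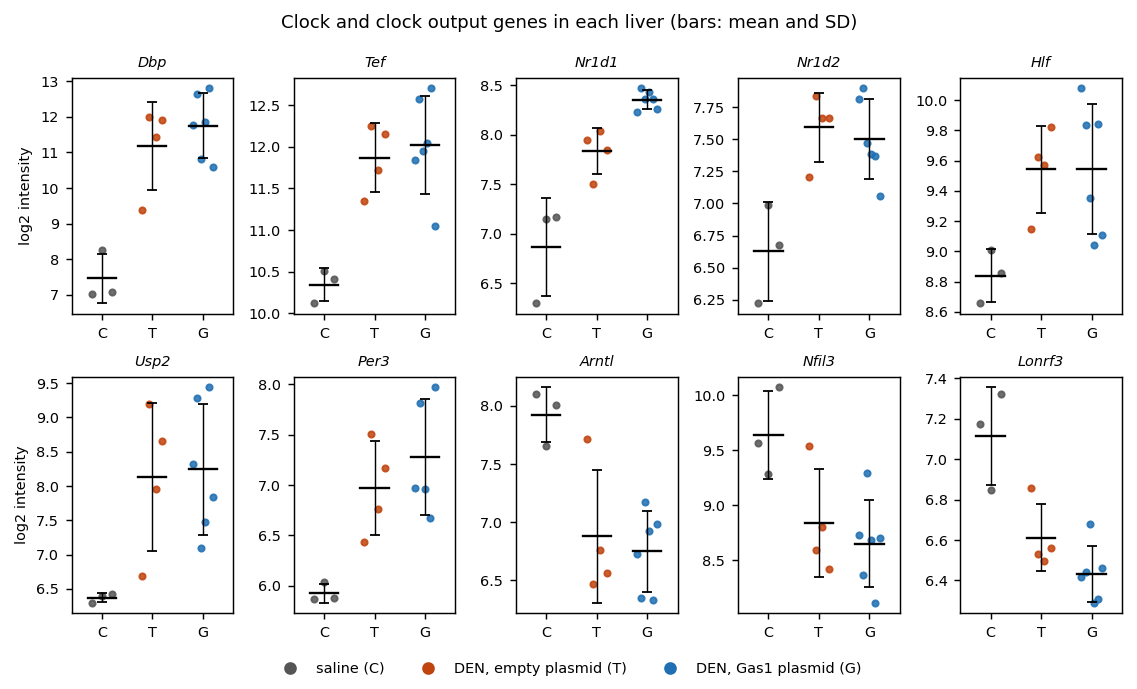
Log2 intensity (vertical axis, scaled per panel) of 10 clock and clock output genes, 1 point per liver, in groups C (3 livers), T (4) and G (6), with the mean as a line and the SD as a bar. Dbp, Tef, Nr1d1, Nr1d2, Hlf, Usp2 and Per3 are higher in every DEN-exposed liver with a value (9 for Per3) than in any saline liver, and Arntl, Nfil3 and Lonrf3 lie lower in most, with T1 nearest to the saline livers. In the full lists 3 of 15 core clock and 4 of 12 clock output genes lay wholly higher, against 3.45% of all genes in either direction.

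Liver makes fatty acids and cholesterol from cytosolic acetyl-CoA, which Acly produces from citrate and Acss2 from acetate. The mevalonate pathway then leads through Pmvk, Mvd and Fdps to sterols, and Fasn, the Elovl elongases and Scd1 build and modify fatty acids. Most of these genes are targets of the SREBP transcription factors and respond to feeding. The mice had free access to food, and whether it was withdrawn before they were killed was not given in the sources used here.

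Acss2 read 11.47, 11.21 and 11.57 in the saline livers and 9.004, 9.81 and 10.21 at the lowest, median and highest of the DEN-exposed livers. The 2 sides were about 1 log2 unit apart at their nearest livers. It fell by 1.61 ± 0.20 (3.05-fold, adjusted p = 0.0132), by 1.78 in group T and by 1.49 in group G, and the adjusted p stayed at 0.0417 or below whichever liver was left out. Under median scaling it was at -0.73 and not called (adjusted p = 0.147), as with the processed signal (adjusted p = 0.0565). Acly read 11.95, 12.27 and 11.50 in the saline livers and 9.96, 10.50 and 11.31 in the DEN-exposed livers. It fell by 1.36 ± 0.26 (2.57-fold, adjusted p = 0.0369), and its call was lost when any of 6 livers was left out, the highest adjusted p being 0.152 without C1. Under median scaling Acly was at -0.45 (adjusted p = 0.335).

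Pmvk, phosphomevalonate kinase, read 12.56, 12.30 and 12.52 in the saline livers and 10.84, 11.40 and 12.03 at the lowest, median and highest of the DEN-exposed livers. It fell by 1.05 ± 0.18 (adjusted p = 0.0253) and did not pass without C1 (adjusted p = 0.129) or without C2 (adjusted p = 0.0772). Under median scaling it was at -0.15 (adjusted p = 0.794). Pmvk was the only 1 of 25 sterol synthesis genes that passed, where 0.59% of all genes did. Of the 25, 23 had a negative difference, and the list median was -0.45. In 9 of them every DEN-exposed liver lay below every saline liver, where 3.45% of all genes did not overlap in either direction, among them Mvd (-1.03, adjusted p = 0.0669), Fdps (-0.90, adjusted p = 0.0566), Sc5d (-0.86, adjusted p = 0.052) and Dhcr7 (-0.72, adjusted p = 0.0683). Hmgcs1 and Sqle were also among the 9, with C2 left out of their fits because its spots were flagged. Between 0 and 3 members fell when 1 liver was left out, and the list median stayed between -0.49 and -0.42. Under median scaling the list median turned to 0.24, which is -0.36 relative to the genes above background on all arrays.

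Acly was likewise the only 1 of 30 lipogenesis and lipid storage genes that passed (0.59% of all genes did), with a list median of -0.36. In 7 members every DEN-exposed liver lay below every saline liver and in 2, Scd2 and Plin4, above it, against 3.45% of all genes in either direction. Besides Acly these included Elovl6 (-1.43 ± 0.32, adjusted p = 0.0627), Acacb (-1.12 ± 0.28, adjusted p = 0.0838), Gpam (-1.01 ± 0.21, adjusted p = 0.052) and Me1 (-1.38 ± 0.40, adjusted p = 0.116). Fasn was at -1.31 ± 0.37 (adjusted p = 0.11) with overlapping livers, and Srebf1, which encodes the regulator SREBP-1, was at -0.18. Without G6, 4 members fell, and without C1 or C2 no member passed. Under median scaling the list median turned to 0.24 as well, -0.36 relative to the genes above background on all arrays. Scd2, a desaturase that adult liver makes little of, was instead at 1.32 ± 0.37 (adjusted p = 0.107) and higher in all DEN-exposed livers.

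**Figure D3:**
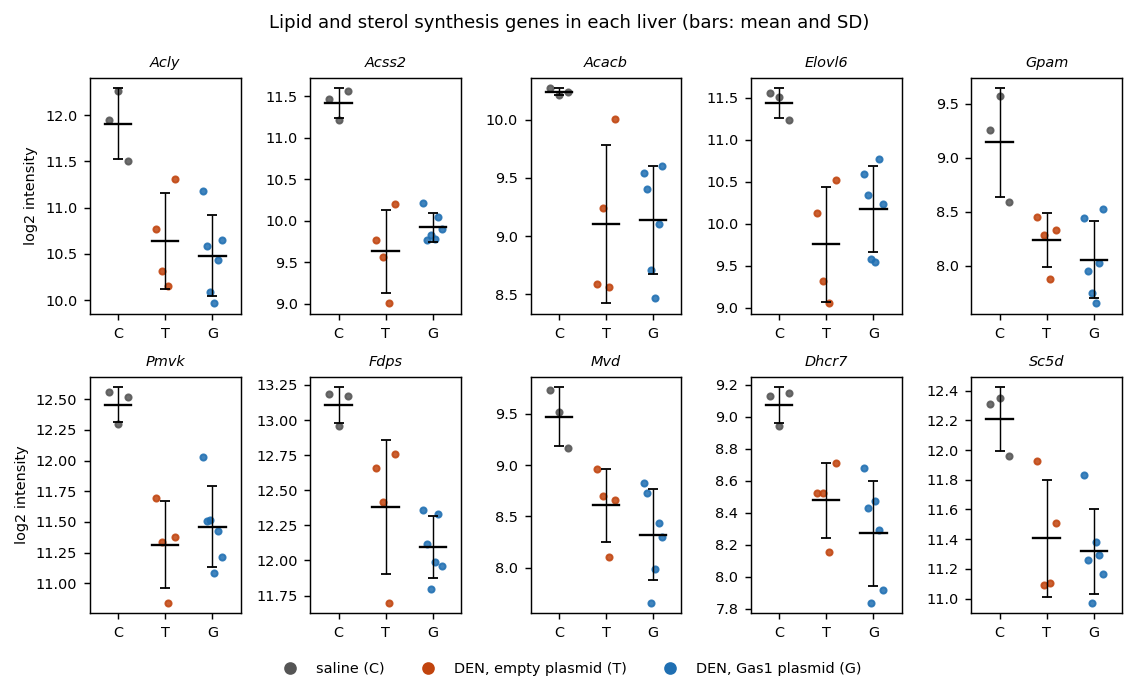
Log2 intensity (vertical axis, scaled per panel) of 10 genes of lipid and sterol synthesis, 1 point per liver in groups C, T and G, with mean and SD. The 10 were picked among genes that lie lower in every DEN-exposed liver than in any saline liver, and Acly, Acss2 and Pmvk passed the test. In the full lists 9 of 25 sterol synthesis genes and 7 of 30 lipogenesis and lipid storage genes did so, and 2 of the latter lay higher.

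In neighbouring metabolic lists 4 genes passed, and the direction of all 4 turned under median scaling. The median of the genes above background on all arrays was then 0.60, and all 4 lay below it. The pentose phosphate enzyme gene Pgd read 9.34, 9.51 and 9.14 in the saline livers, above all DEN-exposed livers, whose lowest was 8.38 and median 8.65, and it fell by 0.65 ± 0.11 (adjusted p = 0.0253), but was at 0.18 under median scaling. The glycolytic Pgk1 fell by 0.47 ± 0.09 (adjusted p = 0.036) and was at 0.42 under median scaling. These were the 2 that passed among 31 genes of glycolysis, gluconeogenesis and glycogen (list median -0.14), where 0.59% of all genes passed. Under median scaling that list median was 0.58, which is -0.02 relative to the genes above background on all arrays. Pck1, the key gene of gluconeogenesis, stood at 1.66 ± 0.40 without passing (adjusted p = 0.0738).

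In amino acid metabolism 2 of 35 genes fell (list median -0.20), where 0.381% of all genes fell. Under median scaling that list median was 0.72, which is 0.12 relative to the genes above background on all arrays. Haao, of tryptophan breakdown, fell by 0.51 ± 0.07 (adjusted p = 0.0137; 0.48 under median scaling), and Ass1, of the urea cycle, fell by 0.49 ± 0.10 (adjusted p = 0.0412; 0.50 under median scaling). The levels of both were high and tight, with Haao at 14.63, 14.69 and 14.45 in the saline livers and between 13.92 and 14.22 in the DEN-exposed livers. Neither the glycolysis list nor the amino acid list had a member that passed without C1 or without C2.

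Ly6a, which encodes the surface antigen Sca-1, had the largest fall, but the saline livers themselves spanned 12.95, 10.05 and 8.26. The DEN-exposed livers lay close together, from 6.97 to 7.60, and Ly6a fell by 3.09 ± 0.61 (adjusted p = 0.0413). The call was lost when any of 10 livers was left out, with differences between -4.17 and -1.83 over the 13 fits. Aqp8, a water and ammonia channel of hepatocytes, read 12.89, 12.42 and 12.61 in the saline livers and 9.62, 10.87 and 11.34 at the lowest, median and highest of the DEN-exposed livers. It fell by 1.90 ± 0.30 (3.73-fold, adjusted p = 0.0183), and no DEN-exposed liver reached the saline range.

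Ppard, a fatty acid-sensing nuclear receptor gene, read 9.42, 8.55 and 9.26 in the saline livers and 7.17, 7.42 and 8.40 in the DEN-exposed livers, where T1 was highest. It fell by 1.54 ± 0.22 (adjusted p = 0.0137). Pgrmc2, a haem-binding membrane protein gene, read 8.45, 8.79 and 8.52 against 7.53, 7.83 and 8.06, and fell by 0.78 ± 0.09 (adjusted p = 0.0132). It passed whichever liver was left out, but under median scaling it was at -0.06 (adjusted p = 0.869). Aqp8 was then at -0.98 (adjusted p = 0.122) and Ppard at -0.81 (adjusted p = 0.0953), and without C1 their adjusted p was 0.104 and 0.077.

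Other falls among the 15 largest were of the glutathione transferase gene Gstt3 (-1.30), the retinol dehydrogenase gene Rdh11 (-1.01), 1110067D22Rik (-1.04), Ppp1r1b (-0.91), Pdzk1ip1 (-0.88), Paqr9 (-0.79) and the lipase gene Pnpla5 (-0.77). Their adjusted p ran from 0.0137 for Ppp1r1b to 0.0412 for Gstt3. Gstt3 was fitted on 9 DEN-exposed livers because a spot of 1 liver was flagged. Gstt3 was the only 1 of 37 Nrf2 and phase II genes that fell, where 0.381% of all genes fell. Ugt2b35, a glucuronosyltransferase gene, was the only 1 that rose (0.49 ± 0.07, adjusted p = 0.0137), where 0.209% of all genes rose. All 7 of these falls lay lower in each DEN-exposed liver than in any saline liver, as the rule for naming them required.

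Tumours of the liver often turn on genes of the fetal liver such as Afp and H19, and Tff3, a trefoil peptide of mucosal surfaces, is raised in many of them. Tff3 read 6.95, 6.87 and 6.62 in the saline livers and 8.58, 10.67 and 12.86 at the lowest, median and highest of the DEN-exposed livers. Every DEN-exposed liver was at least 1 log2 unit above the saline livers, and the difference was 3.87 ± 0.79 (14.6-fold, adjusted p = 0.0449). It was 5.12 in group T and 3.04 in group G, whose difference of -2.09 (95% interval -3.27 to -0.91) did not pass across all genes (adjusted p = 0.153). The call of Tff3 was lost when any of 8 livers was left out, each saline liver among them, and the highest adjusted p was 0.17 without C1.

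Tff3 was the only 1 of 22 liver tumour and fetal liver markers that passed, where 0.59% of all genes did. Of the 22, 20 had a positive difference (list median 0.24), against 19 under median scaling and 15 with the processed signal. Under median scaling the list median was 0.54, which is -0.06 relative to the genes above background on all arrays. Afp, the fetal serum protein, was above background on 0 of 4 saline and on all 11 DEN-exposed arrays, with DEN-exposed levels from 6.66 through 7.45 to 9.16. That gives at least 2.84-fold higher, and with its spread between livers Afp did not pass (adjusted p = 0.107). Akr1c18, a steroid reductase gene, was likewise above background only on the DEN-exposed arrays (at least 2.17-fold higher, adjusted p = 0.125). The imprinted H19 was above background on 10 of 11 DEN-exposed arrays and read 6.14, 7.55 and 11.83 at the lowest, median and highest, the highest being liver G6 with the muscle transcripts, whose part in the level of H19 was not tested. Igf2, Igf2bp1, Igf2bp3 and Vil1 were above background on no array.

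**Figure D4:**
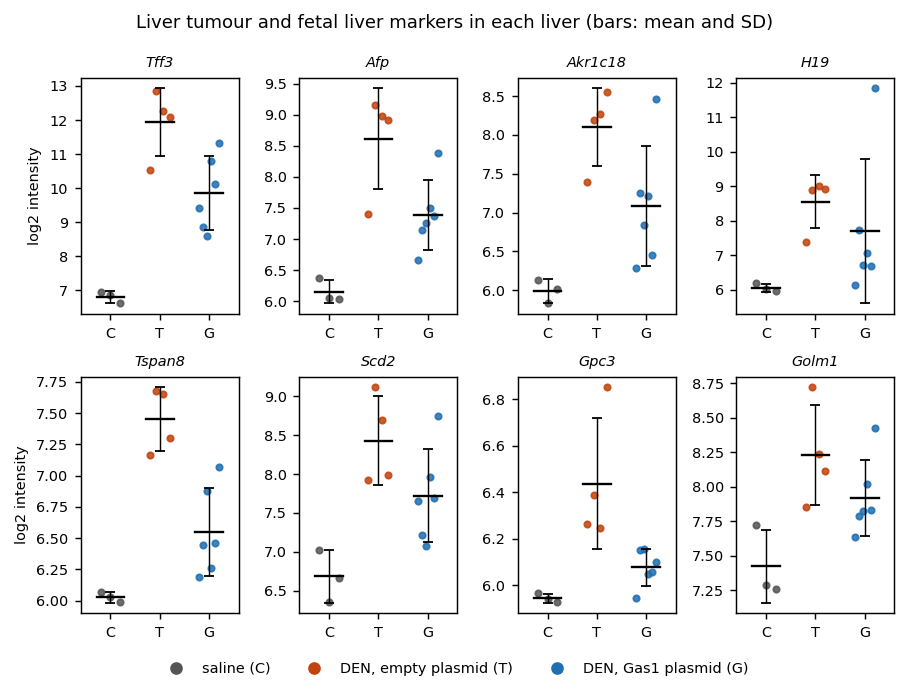
Log2 intensity (vertical axis, scaled per panel) of 8 liver tumour and fetal liver markers, 1 point per liver in groups C, T and G, with mean and SD. Tff3, Afp, Akr1c18, Tspan8 and Scd2 are higher in every DEN-exposed liver than in any saline liver, and H19 is highest in liver G6. In the full list 5 of 22 genes lay wholly higher and 0 wholly lower, where 3.45% of all genes did not overlap in either direction.

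Of 24 targets of p53 and genes of alkylation repair, Aen and Tnfrsf10b rose and 22 did not pass (list median 0.02), where 0.59% of all genes passed. Under median scaling that list median was 0.43, which is -0.17 relative to the genes above background on all arrays. Aen, an exonuclease gene that p53 induces, read 10.28, 9.95 and 9.81 in the saline livers and between 10.42 and 10.86 in the DEN-exposed livers, a rise of 0.59 ± 0.11 (adjusted p = 0.036). Tnfrsf10b, a TRAIL receptor gene, was above background on no saline array and on 6 of 11 DEN-exposed arrays, at levels near the detection limit. Phlda3 was at 1.08 ± 0.26 (adjusted p = 0.0757) and the cell cycle inhibitor gene Cdkn1a at -0.37 (adjusted p = 0.121). Without C2, C3 or T3 no member passed, and without G6 3 rose.

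The remaining named rises were modest. Slc7a7, an amino acid transporter subunit gene, read 7.73, 7.38 and 7.39 in the saline livers and 7.94, 8.62 and 8.78 at the lowest, median and highest of the DEN-exposed livers, a rise of 0.98 ± 0.18 (adjusted p = 0.0328). Kcp rose by 0.85, Pcbp4 by 0.62, Sema3f by 0.60 and Gvin1 by 0.60. Gm14440, Gm14435 and Gm14326, which RefSeq places on chromosome 2, rose by 0.86, 0.85 and 0.84, and OTTMUSG00000016609 and LOC628239 rose by 1.00 and 0.90. These 3 are similar zinc finger sequences, Gm14435 being listed in RefSeq as the pseudogene Zfp968-ps, so their probes may share targets and they do not count as independent genes. LOC628239 was fitted on 9 DEN-exposed livers.

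Markers of other cell types and processes did not pass. In limma 0 genes passed among 12 hepatocyte markers, 34 S-phase and mitosis genes, 25 acute phase genes, 22 macrophage, 24 lymphocyte and neutrophil, 14 endothelial, 30 stellate cell and matrix, 35 interferon-stimulated, 50 cytochrome P450 and 17 hedgehog pathway genes. The list medians of these ran from -0.15 for hepatocyte markers to 0.17 for endothelial markers. Under median scaling that of hepatocyte markers was 0.64, which is 0.04 relative to the genes above background on all arrays. Among 11 globin and erythroid genes, also with no call, the list median was 0.30, with Hba-a1 at 1.37 and Hbb-b1 at 1.71 and overlapping livers. Over all 26 lists with no call (627 members) 112 members had an unadjusted p under 0.05, a share near that of all genes (3592 of 22032), and the methods' t-test called 5 with Welch's variant and 0 with equal variances. Among the acute phase list 2 of 25 members did not overlap, against 3.45% of all genes. These metallothionein genes, Mt1 and Mt2, were higher in every DEN-exposed liver than in any saline liver (2.41 ± 1.10 and 2.37 ± 1.23, adjusted p = 0.297 and 0.36). Their DEN-exposed levels ran from 9.80 to 16.74 and from 9.13 to 16.41, in both cases with T2 highest.

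**Figure D5:**
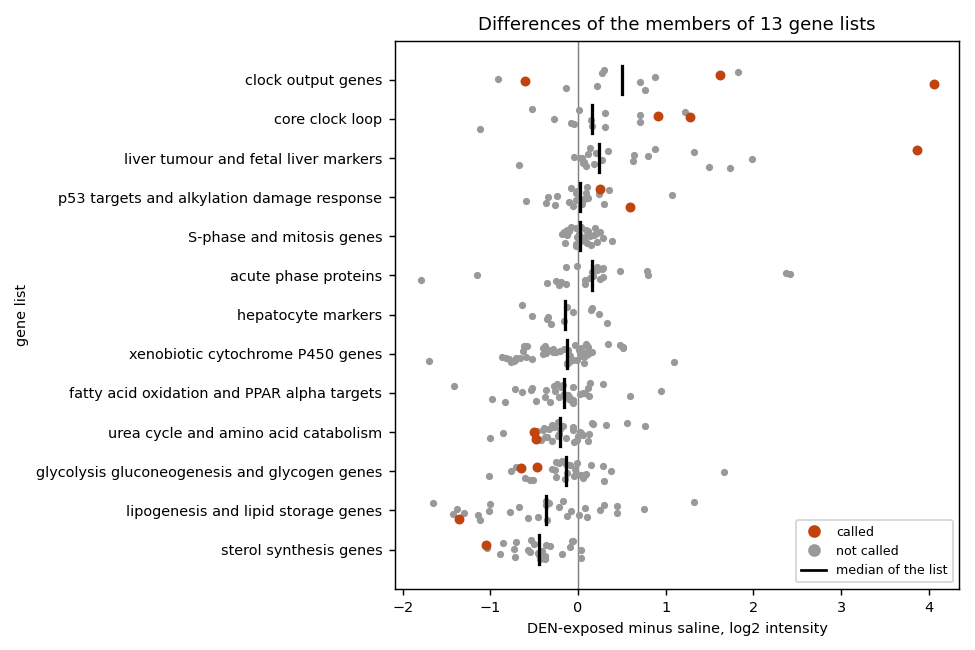
Difference of DEN-exposed from saline livers (horizontal axis, log2 intensity) for each member of 13 gene lists (rows). Coloured points passed the test, grey points did not, and the black line is the list median, lowest for sterol synthesis (-0.45) and highest for clock output genes (0.50).

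The 2 plasmids were compared within the DEN-exposed livers to see how far the differences from saline were shared. At each of the 130 genes, the T mean and the G mean differed from saline in the same direction. The 130 were called by pooling these same T and G livers, so a shared direction follows largely from that selection. It is therefore no separate evidence that the differences were shared. Both group means are also set against the same 3 saline livers, so they are not independent of each other. Alone against saline in the 3-group fit, 108 of the 130 passed for T and 64 for G. Between groups G and T 29 of all 22032 genes (0.132%) passed, and 0 of the 130 did by limma, with 16 at an unadjusted p under 0.05, a share near that of all genes (2379 of 22032). The methods' t-test, with equal variances or Welch's, also called 0 of them. The pooled test counts a difference between T and G as spread, so genes on which the plasmids differ are less likely to be called in it. For 51 of the 130 the 95% interval of G minus T lay within 0.5 times the pooled difference on either side of 0. Acss2 was at 0.29 (interval -0.10 to 0.68), Dbp at 0.57 (-0.65 to 1.79) and Paqr9 at -0.01 (-0.31 to 0.30).

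Ranked by SD over the 10 DEN-exposed livers, the first 10 genes were Lcn2, Saa1, Mt2, Saa2, Mt1, BC021614, Fgl1, Dnaic1, Slc25a4 and Cck. Of these Lcn2, Saa1 and Saa2 are acute phase genes and Mt1 and Mt2 metallothionein genes. The 10 were not among the 130 called genes, but a wide spread itself makes a call less likely. The called Tff3 had an SD of 1.47, just under the 1.49 of Cck. Mt1, Mt2 and Dnaic1 were higher in every DEN-exposed liver than in any saline liver. Liver T2 was highest for Lcn2, Saa1, Saa2, Mt1 and Mt2, and T4 was second for Lcn2 (11.21), Saa1 (14.35) and Saa2 (14.69). Group T lay wholly above group G for Saa1 (12.39 or more against 11.41 or less), Saa2, Fgl1 and Dnaic1. It lay wholly below group G for Cck, and the groups overlapped for the other genes of the 10. Of the 10, only Dnaic1 passed between G and T (adjusted p = 0.00049, limma). BC021614 split the livers, at 11.61 to 12.09 in G3, G5, G6 and T1 and at 8.12 to 8.35 in the other 6. Slc25a4, the muscle ADP/ATP carrier gene, was at 13.04 in G6 and between 7.71 and 8.47 elsewhere among the DEN-exposed livers.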

How the data were processed

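Scanner files of 15 Agilent SurePrint G3 arrays (Feature Extraction 10.7.3.1) were deposited by the authors as spot intensity values with background intensities. The authors' deposited value table holds log2 values, which differed from those computed here by a median of 0.00268. Mean signals were background-corrected (normexp, offset 50) and quantile-normalised in limma 3.58.1 under R 4.3.3, control spots and outlier flags (218 to 3692 spots) were left out, spots were averaged per probe, and probes per gene after centring. Array pairs of the same RNA code (SD of log2 differences 0.146 and 0.143, other pairs within those groups 0.235 or more) were averaged. The labels do not say more on replicates, so p-values measure the spread between these livers. A gene was called at a Benjamini-Hochberg adjusted p under 0.05 over 22032 symbols in a 2-group limma fit, and G was set against T in a 3-group fit. Genes were named as the 15 largest called rises and falls that were above background throughout the higher side and did not overlap, plus up to 4 called members per list, any member of the tumour marker and core clock lists, the 10 with the largest spread, and Gas1. Itpr3 was named after its values were seen. The members and lists were chosen with earlier results of these data known. Alternatives were other scalings, filters, probe rules, slide, replicate block, the methods' t-test and leaving out each liver. The number of arrays limits the precision. The test was checked on simulated data, and figures were drawn with matplotlib 3.10.9. One of the named genes is not reported here.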

Additional observations from a re-analysis of the deposited data

Results flagged for a closer look

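In 126 checks of whether 1 liver lay far from the rest of its group, 12 did. Chance marks about 1 in 20, but the genes checked included those named for their large spread, so the number is not comparable with chance. Liver T2 lay above all other DEN-exposed livers for Lcn2 (15.4), Saa1 (18.4), Mt1 (16.7) and Mt2 (16.4). Liver G6 did so for Slc25a4 (13.04) and H19 (11.8), both among the 6 livers of group G and among all 10 DEN-exposed livers. Liver T1 was highest for Ppard (8.40) among the 10 and for BC021614 (11.9) among the 4 livers of group T, and lowest in group T for Afp (7.41) and H19 (7.39).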

How the results depend on the processing

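Over the 30 named genes under 33 alternatives each, 641 values kept direction and call, 348 lost the call and 1 changed sign, Paqr9 at 0.038 under median scaling. Against 130 genes called between DEN-exposed and saline livers and 29 between G and T, median scaling called 4154 and 8, cyclic loess 8 and 30, the processed signal 2 and 3, and the filter on dim genes 266 and 67. Taking 15 arrays as separate samples gave 770 and 268, slide as a term 271 and 72, slide 1 alone 2 and 7, and slide 2 alone 0 and 4. The mean of T and G against C gave 337, T alone 523 and G alone 94. The methods' t-test gave 16 and 5 with equal variances and 288 and 1 with Welch's variant. A trended robust variance gave 124 and 19, and array weights 158 and 159. Leaving out 1 liver gave 17 (C2) to 287 (G6) and 4 (G3, G5 or T3) to 117 (T1), and 5 (T2) to 10 of the 10 genes of largest spread. The cause of these shifts was not tested. With the replicate number as a block 121 and 6 genes were called, 52 of the 121 among the 130. Livers of the same number correlated between -0.31 and 0.25 in their deviations, and livers of different numbers between -0.33 and 0.41. Whether the number marks a pairing was not tested. Without liver G6 all 130 genes were still called, and the gene list counts without it were chosen after seeing the data. With 3 saline livers, 1 liver decides most calls, and genes near background have only a bound.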

Other observations

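Cck, which encodes the peptide cholecystokinin, read 6.96 in liver T1, 6.65 in T4, 9.70 in T2 and 9.59 in T3. In group G it lay between 10.30 and 10.68. Dnaic1, a dynein gene of cilia, lay between 10.08 and 11.06 in group T, between 7.04 and 8.34 in group G and between 6.43 and 7.03 in the saline livers.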
